A study of Macaca mulatta with 16 samples.

Results

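The SLC1 gene family encodes sodium-coupled transporters of the plasma membrane. SLC1A1, SLC1A2 and SLC1A3 carry glutamate and aspartate, and SLC1A4 and SLC1A5 exchange neutral amino acids such as alanine, serine and glutamine. The 5 genes were found by their symbol in the platform annotation of 2 human array types, U133A and U133B, where they have 13 probe sets (11 on U133A and 2 on U133B) among 44928. A probe set is a group of short probes against 1 transcript. The family was chosen by the orbital and global layer intensities of SLC1A2, its most unequal member, so every layer value below is a description and not a test. The 13 probe sets are not 13 measurements: SLC1A4 has 5 and SLC1A2 has 4.

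The samples were extraocular muscle, the muscle that moves the eye, of adult rhesus macaques (Macaca mulatta), with no treatment named. Each of 4 groups was hybridised to 2 arrays of each type: microdissected orbital layer (outer), microdissected global layer (inner), whole lateral rectus and whole medial rectus. Layer RNA passed through a T7-based amplification and whole muscle RNA did not, so that microdissection and amplification cannot be told apart in any comparison of layers with whole muscle. Animals are not named, so p-values reflect no more than the spread among these arrays, which may be technical, and regions of 1 animal would make them too small. For U133A orbital layer replicate 1 the title says orbital and the source name says global; U133B global layer replicate 1 has a source name that does not say which layer. Titles were followed, and values without these 2 arrays are given.

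Glutamate transporters move glutamate into cells against its gradient by using the sodium gradient. SLC1A2 (also EAAT2 or GLT-1) and SLC1A3 (EAAT1 or GLAST) are best known from astrocytes, which clear glutamate from synapses and convert it to glutamine, and SLC1A1 (EAAT3) from neurons and epithelia. In muscle, glutamate feeds transamination with alanine and the making of glutamine, and glutamine leaves and enters fibres through neutral amino acid carriers.

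The samples were checked against muscle fibre markers. ACTA1, CKM, DES, TTN, MB, MYH13 and MYH2 were all measured on U133A, with a summed intensity of 480781 to 537303 in the global layer, 483692 to 511190 in the orbital layer and 533032 to 677335 in whole muscle. The signal ratio of the 3' to the 5' ACTB probe set, a measure of RNA integrity and of amplification, was 2.84 to 5.87 on the layer arrays and 0.716 to 1.04 on the whole muscle arrays of U133A, and 3.54 to 5.29 against 0.512 to 0.933 on U133B. Fewer cells of a type and less RNA per cell cannot be told apart in these samples.

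SLC1A2 was high in the global layer, intermediate in whole muscle and low in the orbital layer. On U133B its probe set 225491_at had intensities of 22491 and 10977 on the global layer arrays, 2819 and 1735 on the lateral rectus arrays, 1821 and 1033 on the medial rectus arrays, and 564.6 and 78.7 on the orbital layer arrays. Both global arrays lay above all 4 rectus arrays, and both orbital arrays lay below them; the 2 rectus muscles overlapped. On U133A the probe set 208389_s_at gave 3795 and 1787 in the global layer, 1715 and 1339 in the lateral rectus, 1698 and 1372 in the medial rectus, and 470.3 and 445.8 in the orbital layer. The order of the groups was that seen on U133B, again with overlap of the rectus muscles alone. Such a complete separation in this order was found in 73 of 22215 probe sets on U133A (0.329%) and in 38 of 22577 on U133B (0.168%), controls left out. Of the SLC1 probe sets, these were the only 2. The order holds the layer contrast by which the family was chosen, so these shares are a description only.

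**Figure D1:**
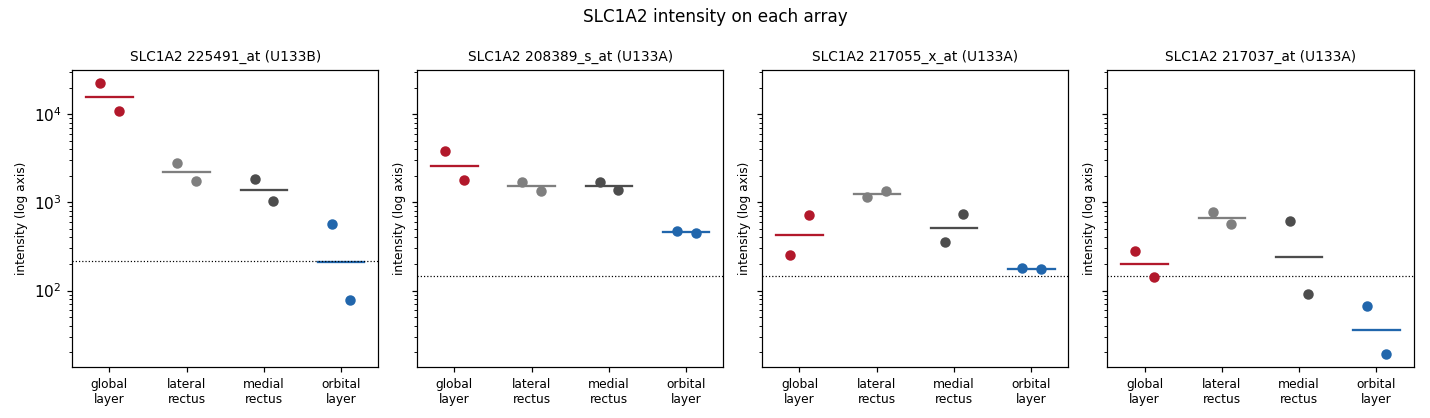
Intensity of the 4 SLC1A2 probe sets on each array (points; log axis) for 4 groups of 2 arrays, with the geometric mean of a group (bar) and the floor set for log2 values (dotted line, 218.5 on U133B and 146.5 on U133A). Both global layer arrays lie above both orbital layer arrays in every panel; 225491_at falls from 22491 and 10977 in the global layer to 564.6 and 78.7 in the orbital layer.

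On the log2 scale, with values under the floor of 218.5 raised to it, 225491_at fell by 5.48 ± 0.52 (SE, n = 2 arrays each) from the global to the orbital layer, a fold of 44.7. It was the lowest difference among 9510 probe sets kept after a filter on low values. One orbital array was under the floor, so this size depends on where the floor is set: the difference was −6.22 with a floor at the 5th percentile and −4.80 without that array. Without global layer replicate 1 it was −4.97. On U133A, 208389_s_at differed by −2.51 ± 0.39, a fold of 5.69, which was the sixth lowest of the 9532 differences on that array; without orbital layer replicate 1, the array with conflicting labels, it was −2.55.

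The other SLC1A2 probe sets were dim and did not pass the filter in the layers. 217055_x_at was at 250.7 and 717.5 in the global layer and at 179.2 and 176.4 in the orbital layer. 217037_at was at 278.9 and 142.2 against 66.4 and 19.3, of which only the first lay above the floor of 146.5. Before the floor was applied, both orbital arrays were below both global arrays in 4 of 4 SLC1A2 probe sets. With the floor, 217037_at no longer separated the layers. Over all probe sets, 23.9% on U133A and 15.2% on U133B had this arrangement before the floor. The family was chosen by these layer values and the probe sets are of 1 gene, so nothing is read from this count. In whole muscle the dim probe sets did not follow the brighter ones: the lateral rectus, at 1138 and 1352 for 217055_x_at and 777.9 and 569.0 for 217037_at, lay above the global layer for both. The suffixes _x and _s mark probe sets whose probes may also match other transcripts. The arrays are human and the RNA was of macaques, and the match of any SLC1 probe set to the macaque transcript was not checked.

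SLC1A3, the glial glutamate and aspartate transporter, went the opposite way. Its probe set 202800_at had 1801 and 1562 in the orbital layer, 741.6 and 1294 in the global layer, 833.2 and 1476 in the lateral rectus and 337.2 and 753.1 in the medial rectus. Both orbital arrays were the highest of the 8; the global layer overlapped with either rectus muscle, and the medial rectus lay below the lateral rectus. The layer difference was 0.78 ± 0.34 on the log2 scale (1.71-fold), and it was 0.67 without orbital layer replicate 1. It was 0.37 without global layer replicate 1 and 1.18 without global layer replicate 2.

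SLC1A1, the neuronal and epithelial transporter, showed no separation of the layers. On 206396_at the global layer was at 400.6 and 513.5 and the orbital layer at 444.9 and 395.9. On 213664_at these were 530.3 and 181.2 against 501.3 and 282.2. The groups overlapped on both, and neither probe set passed the filter in the layers.

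The neutral amino acid transporters gave a mixed picture. SLC1A5, which carries glutamine, gave orbital values of 813.7 and 407.8 beside global values of 174.8 and 385.5, with the orbital arrays above by a narrow margin on a dim probe set. SLC1A4, which carries alanine, serine and cysteine, had 5 probe sets that disagreed. Its brightest on U133A, 212811_x_at, had orbital values of 1368 and 895.3 and global values of 1259 and 988.5, a difference of −0.01 ± 0.33 (0.05 under quantile normalization). On U133B, 244377_at was at 1900 and 1683 against 1527 and 603.6, with no overlap and a difference of 0.90 ± 0.51. That difference was 1.57 without global layer replicate 1, whose label does not name its layer, and 0.23 without global layer replicate 2. 209610_s_at went the other way, at 52.7 and 66.1 against 386.4 and 271.0, with both orbital arrays under the floor. The remaining probe sets, 209611_s_at and 212810_s_at, overlapped between the layers.

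**Figure D2:**
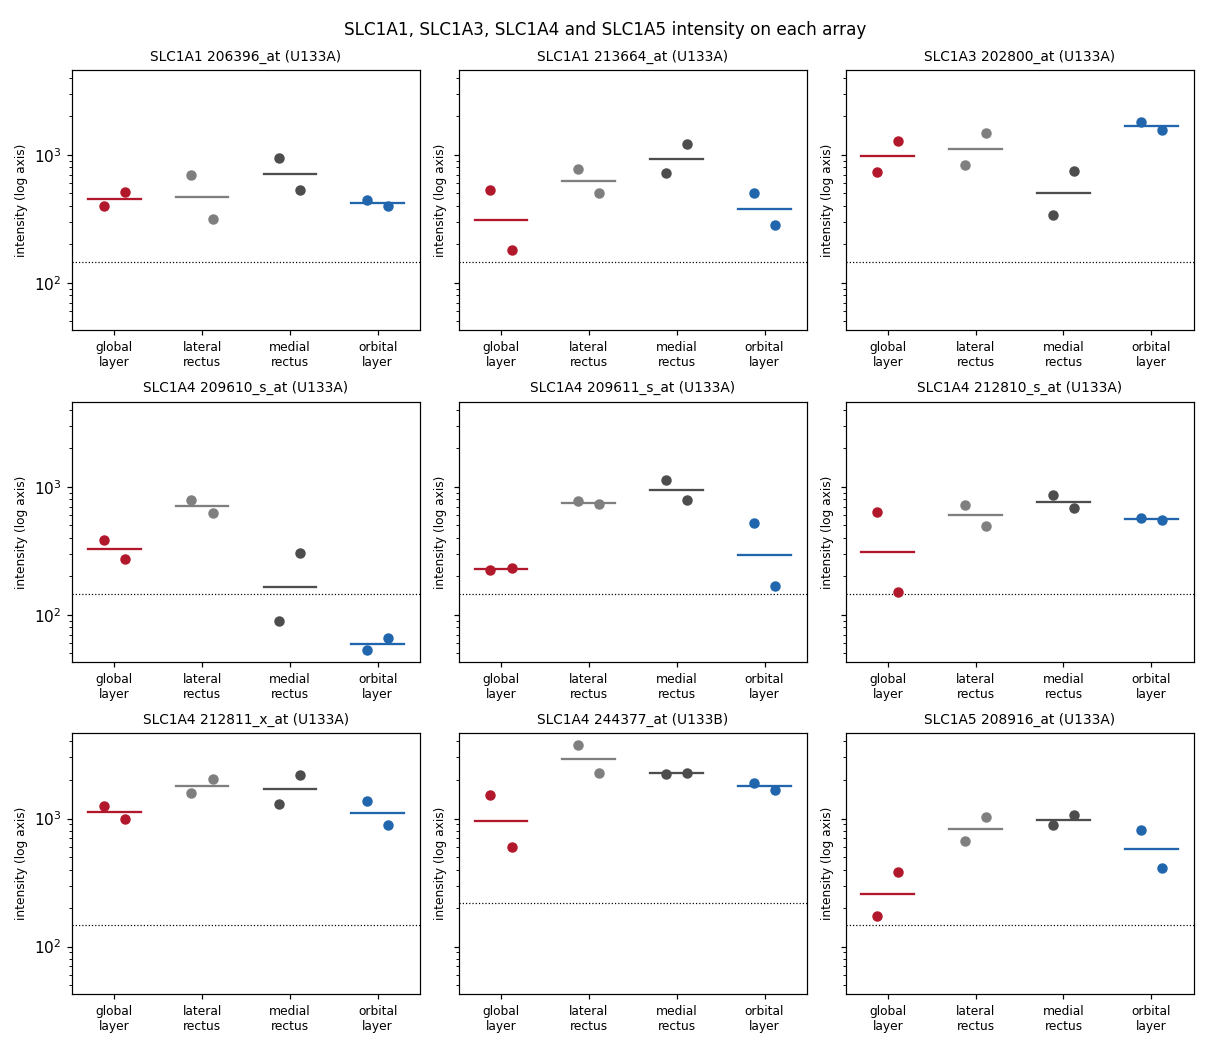
Intensity of the 9 probe sets of SLC1A1, SLC1A3, SLC1A4 and SLC1A5 on each array (points; log axis), with the geometric mean of a group of 2 arrays (bar) and the floor (dotted line). SLC1A3 is highest on the orbital layer arrays, at 1801 and 1562, and the probe sets of SLC1A4 differ in direction between the layers.

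In all, before the floor, 4 of 11 probe sets on U133A were lower and 2 higher in the orbital layer without overlap, and 5 overlapped. Over all probe sets 23.9% were lower and 14.1% higher. On U133B 1 of 2 was lower and 1 higher, where the shares over all probe sets were 15.2% and 20.8%. In limma, a test with variances moderated over all probe sets, 1 of 2 kept SLC1 probe sets on U133B (225491_at) and 0 of 3 on U133A were past an adjusted p of 0.05, against 0.0210% and 0.409% of all kept probe sets. The call of 225491_at was lost after quantile normalization, with the floor at the 5th percentile, with no filter, with variances without a trend and without orbital layer replicate 2. On U133A, 208389_s_at gained a call with all 4 groups in one fit, with the replicate block and without either orbital layer array or global layer replicate 2. The members were chosen on this contrast, so nothing is read from these counts; at an unadjusted p under 0.05, the 3 on U133A held 1.

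**Figure D3:**
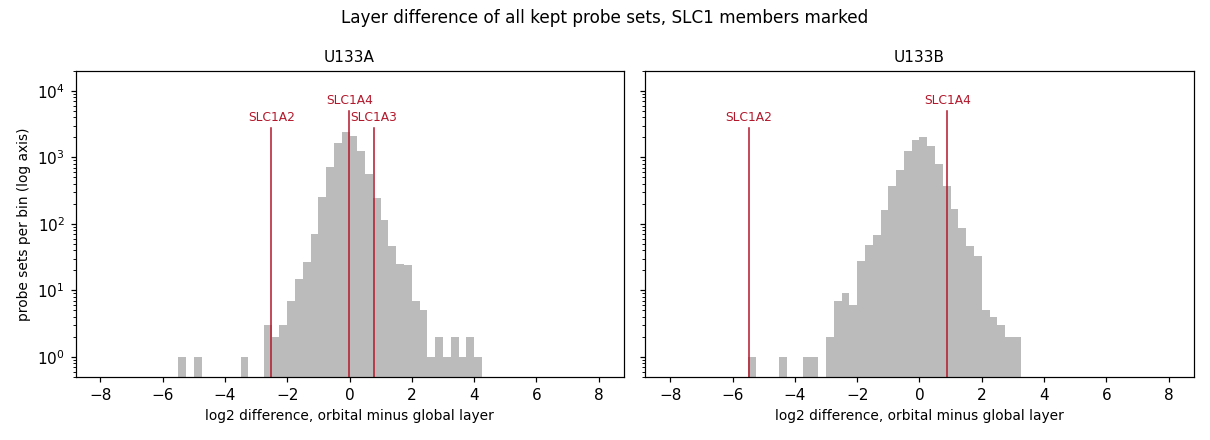
Number of kept probe sets (log axis) by log2 difference between orbital and global layer in bins of 0.25, for U133A (left) and U133B (right), with the kept SLC1 probe sets marked in red. SLC1A2 lies at −2.51 on U133A and at −5.48 on U133B, while SLC1A3 and SLC1A4 lie at 0.78, −0.01 and 0.90.

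All 6 genes of the fast fibre list were lower on both orbital than on both global arrays of U133A, the direction of SLC1A2. Over all probe sets of U133A, 23.9% had this arrangement. The summed intensity of the 6 fast fibre genes (ACTN3, MYH1, MYH4, PVALB, TNNT3 and MYBPC2) was 212067 to 315389 in the global layer. It was 147550 to 147745 in the orbital layer and 157887 to 206816 in whole muscle. MYBPC2 was under the floor on both orbital arrays, both medial rectus arrays and lateral rectus replicate 1. MYH2, the myosin of fast IIa fibres, was listed with the general fibre markers. It went the other way without overlap, at 60876 and 90381 in the global layer and 129993 and 127937 in the orbital layer. MYH13 of that list was lower in the orbital layer without overlap, at 77182 and 91755 against 120544 and 122873 in the global layer. ACTN3, the alpha-actinin of fast fibres, was at 11435 and 36323 in the global layer and at 337.8 and 679.4 in the orbital layer. Within the global layer of U133A, ACTN3 was higher on replicate 2. SLC1A2 was higher on replicate 1 by 208389_s_at and 217037_at, and higher on replicate 2 by 217055_x_at. The 5 slow fibre genes (MYH7, TNNT1, TNNI1, MYL2 and MYBPC1) summed to 111481 to 191150 in the global and 201867 to 235797 in the orbital layer. Of these, TNNT1 and MYBPC1 were higher in the orbital layer without overlap, and MYH7, TNNI1 and MYL2 overlapped. The ACTB ratio also differed between the layers, at 5.30 and 5.87 on the orbital against 2.84 and 2.88 on the global arrays of U133A, and at 5.29 and 4.43 against 3.54 and 3.61 on U133B. The part of fibre type and of RNA quality in the SLC1A2 difference was not tested.

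Markers of astrocytes, the cells from which SLC1A2 is best known, and of other cell types were measured too. The 9 astrocyte genes on U133A summed to 23521 to 31681 in the global and 27417 to 37373 in the orbital layer, which overlap. NDRG2 made up most of these sums, at 13100 and 19966 in the global and 17198 and 23055 in the orbital layer. Without overlap, FGFR3 was higher in the orbital layer (848.7 and 1731 against 109.8 and 762.2) and SLC4A4 lower (936.4 and 1215 against 1447 and 1308). GFAP, the filament protein that defines astrocytes, was at 703.1 and 404.8 in the global and at 368.0 and 527.8 in the orbital layer, and S100B was under the floor on all 4 layer arrays. On U133B, which has 2 of the 9 genes, GFAP was under the floor on both global arrays, and AQP4, a water channel of astrocytes and also of fast muscle fibres, was at 1147 and 2600 in the global against 653.5 and 426.7 in the orbital layer. On U133A AQP4 was at 322.7 and 164.0 against 142.6 and 123.8. The 5 Schwann cell genes on U133A summed to 12485 to 13577 in the global and 11660 to 12549 in the orbital layer, which overlap, with S100B under the floor. Of these, PRX (2397 and 2879 against 2223 and 2230) and SOX10 (3914 and 2334 against 2013 and 2122) were lower in the orbital layer without overlap. MBP and ERBB3 overlapped. The 2 Schwann cell genes on U133B, MBP and ERBB3, summed to 6159 to 6365 in the global and 7496 to 7827 in the orbital layer. These sums were higher in the orbital layer without overlap, as was MBP alone, while ERBB3 overlapped. The 7 neuron and axon genes on U133A summed to 6696 to 7620 and 6303 to 6427, without overlap. The 6 endothelial genes summed to 16573 to 20324 and 13125 to 14002, also without overlap. Of the summed probe sets, SYT1, SNAP25, NEFL, VWF and TEK were lower in the orbital layer without overlap. A brighter TEK probe set of U133A, not in these sums, overlapped, with means of 1081 in the orbital and 1047 in the global layer. The TEK probe sets thus disagreed. NEFM (420.4 and 295.6 against 1141 and 930.8) and TIE1 (469.1 and 174.1 against 666.5 and 675.1) were higher in the orbital layer without overlap, and the other summed probe sets overlapped. STMN2 was under the floor on both global arrays. On U133B the only neuron gene, NEFM, was under the floor on all 4 layer arrays, and the only endothelial gene, VWF, overlapped (198.0 to 224.0 and 202.4 to 286.0). The 6 fibroblast genes summed to 193232 to 195412 in the global and 227973 to 260137 in the orbital layer of U133A, without overlap, but 4 of them overlapped on U133B (13571 to 16782 and 12825 to 18302). The 4 photoreceptor genes on U133A summed to 738.2 to 1807 and 4139 to 6065; of these PDC, phosducin, separated the layers (310.9 and 349.1 against 5383 and 3601), SAG and RCVRN overlapped and GNAT1 was under the floor on all 4 layer arrays. The 4 macrophage genes overlapped (2714 to 3036 and 2828 to 3772). The sums of the 4 adipocyte genes overlapped on U133A (16340 to 19560 and 8174 to 22171). LPL made up most of these sums, and ADIPOQ and PLIN1 were under the floor on all 4 layer arrays. FABP4, a fatty acid binding protein of adipocytes and endothelium, was lower in the orbital layer without overlap on both array types, at 3134 and 6469 against 899.6 and 2028 on U133A and at 2681 and 4705 against 568.0 and 1688 on U133B. Their part in the SLC1A2 difference was not tested.

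The genes whose log2 intensities were most like those of SLC1A2 over the 8 arrays of a type were named as a description. On U133A, among 9299 probe sets with a single symbol, they were BLNK (an adaptor of B cell signalling; Pearson r = 0.951), AKR1B10 (an aldo-keto reductase; 0.949), SEC14L5 (0.943), SPP1 (osteopontin; 0.928) and NIPSNAP2 (a mitochondrial protein; 0.927). On U133B, among 7899, they were SBK1 (a kinase; 0.994), UGT8 (the galactosyltransferase of myelin lipid synthesis; 0.957), LYRM7 (an assembly factor of respiratory complex III; 0.950), SH3KBP1 (an adaptor of receptor uptake; 0.924) and CCDC85A (0.914). The 8 arrays share 4 groups, so these values rest mainly on the group means. BLNK, for example, had means of 2416 in the global layer, 1174 and 1229 in lateral and medial rectus and 412.7 in the orbital layer.

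Medial and lateral rectus were compared to ask whether the family differs between the muscle that adducts the eye and the one that abducts it, a contrast not used to choose the genes. Of the SLC1 probe sets kept by the filter, 0 of 8 on U133A and 0 of 2 on U133B passed in limma, and 0 had an unadjusted p under 0.05; 3 on U133A were not tested. Over all kept probe sets 0% passed on each array type (0 of 11907 and 0 of 11836, with 333 and 406 at an unadjusted p under 0.05), so the share of the members is that of the background. SLC1A2 on 208389_s_at was nearly equal, with a difference of 0.01 and a 95% interval of −0.76 to 0.78. On U133B, 225491_at differed by −0.69, with an interval of −1.92 to 0.54. Neither interval shows that the muscles are alike.

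The largest differences among the kept probe sets did not pass either. SLC1A2 on 217055_x_at was at 359.0 and 732.0 in the medial rectus and at 1138 and 1352 in its lateral counterpart (a log2 change of −1.27 ± 0.57, adjusted p = 0.999 in limma). SLC1A3 was at 337.2 and 753.1 against 833.2 and 1476 (−1.14 ± 0.65, adjusted p = 0.999 in limma). Both were lower in the medial rectus without overlap, as was SLC1A4 on 209610_s_at (89.8 and 304.8 against 789.0 and 624.3), which did not pass the filter and was not tested. In all, 3 of 11 probe sets on U133A were lower and 1 higher in the medial rectus without overlap, where 12.9% and 17.2% of all probe sets were. SLC1A1 on 213664_at (0.58 ± 0.58), SLC1A5 (0.22 ± 0.49) and the other kept probe sets of SLC1A4 (−0.37 to 0.36) overlapped, other than 209611_s_at, at 1121 and 780.8 against 768.4 and 731.7.

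**Figure D4:**
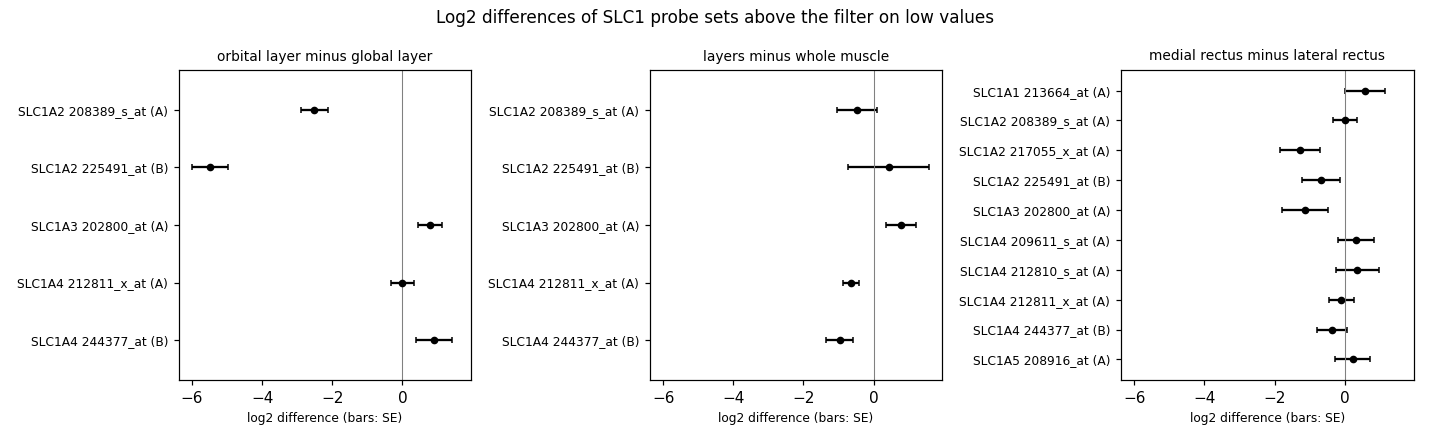
Log2 difference of each kept SLC1 probe set (points, with SE bars) for the 3 comparisons; A and B name the array type. The orbital minus global panel (left) holds SLC1A2 at −5.48 and −2.51, and in the medial minus lateral panel (right) all values lie between −1.27 and 0.58.

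Microdissected layers were compared with whole muscle as 4 arrays against 4. SLC1A4 on 212811_x_at fell, from 1783 ± 404 in whole muscle to 1128 ± 223 in the layers (SD, n = 4; log2 difference −0.65 ± 0.23, adjusted p = 0.0366 in limma), and the groups overlapped. It was the only one of 3 kept SLC1 probe sets on U133A to pass, where 48.7% of all kept probe sets passed and 30.1% passed with lower values in the layers. None of 2 passed on U133B, where these shares were 42.8% and 22.3%; 1 had an unadjusted p under 0.05. That was SLC1A4 on 244377_at, at 1527, 603.6, 1900 and 1683 in the layers against 3743, 2260, 2240 and 2269 in whole muscle, all 4 layer arrays below (−0.97 ± 0.38, adjusted p = 0.0558 in limma).

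The scaling bears on this comparison. The median log2 difference of all kept probe sets was −0.18 on U133A and −0.21 on U133B, and 0.00 and −0.04 after quantile normalization; the share of calls that were higher in the layers moved from 38.3% to 50.4% on U133A and from 47.8% to 55.7% on U133B. Relative to that median, 212811_x_at was lower by −0.47 and 244377_at by −0.75. After quantile normalization 212811_x_at differed by −0.24 and did not pass (adjusted p = 0.431 in limma; 0.0202 to 0.431 across its alternatives). It also did not pass without any one of global layer replicate 2, orbital layer replicate 2, lateral rectus replicate 2 or medial rectus replicate 2 (−0.60 to −0.55).

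The glutamate transporters did not pass between layers and whole muscle. SLC1A3 was at 1349 ± 455 in the layers and 849.8 ± 471 in whole muscle (SD, n = 4; 0.78 ± 0.42, adjusted p = 0.147 in limma); it passed after quantile normalization (1.22, adjusted p = 0.0418 in limma) and without lateral rectus replicate 2 (1.10, adjusted p = 0.0452 in limma; 0.0418 to 0.382 across its alternatives). SLC1A2 lay on both sides of whole muscle, since its global layer was above and its orbital layer below. Its mean difference was accordingly 0.43 ± 1.15 on 225491_at and −0.48 ± 0.57 on 208389_s_at (adjusted p = 0.780 and 0.508 in limma), and the first changed sign without either global layer array (−0.65 and −0.31). Dim probe sets that did not pass the filter included SLC1A5, at 174.8 to 813.7 in the layers and 671.0 to 1057 in whole muscle, and SLC1A4 on 209611_s_at, at 166.3 to 524.1 against 731.7 to 1121, without overlap. All 4 layer arrays lay below all 4 whole muscle arrays in 1 of 11 SLC1 probe sets on U133A and 1 of 2 on U133B, and in 27.2% and 20.5% of all probe sets.

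Genes that handle glutamate and other amino acids beside SLC1 were followed as 4 lists. Between the layers their values are a description. Of the enzymes of glutamate and glutamine on U133A, 4 of 8 had the higher value in the orbital layer with a median of 0.02, other amino acid transporters in 6 of 11 with a median of 0.17, receptors and vesicular transporters in 2 of 7 with a median of −0.34, and partner proteins of SLC1 carriers in 1 of 2 with a median of −0.07; the median over all genes was −0.05. On U133B, the transporters were higher in 5 of 8 (median 0.33) and the receptors in 3 of 5 (median 0.00), beside a median of 0.02 over all genes. GLUL, glutamine synthetase, the partner enzyme of SLC1A2 in astrocytes, had means of 18660 in the orbital and 15669 in the global layer (0.26 ± 0.21). SLC25A12, the mitochondrial aspartate and glutamate carrier, had 7723 against 13298 (−0.77 ± 0.24). GRIA3 and GRIN3A, glutamate receptor subunits, had 5838 against 1738 and 4188 against 1281 on U133B (1.76 and 1.68), without overlap. GRIN2A, another subunit, went the other way without overlap, with 350.6 against 1854 on U133B (−2.30; named there after its value was seen) and 821.4 against 1395 on U133A (−0.77). Between medial and lateral rectus no list member passed in limma, with medians of −0.01 to 0.65 on U133A and −0.24 to 0.07 on U133B.

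Between layers and whole muscle, genes of every list passed, as did 48.7% of all kept probe sets on U133A and 42.8% on U133B. Of 8 enzymes on U133A, GLUL (17165 against 6440; 1.41 ± 0.15) and GOT2, mitochondrial aspartate aminotransferase (31568 against 22248; 0.50 ± 0.15), rose and GAD2, a glutamate decarboxylase, fell (−1.61 ± 0.30), with a median of −0.26 beside −0.11 over all genes. Of 13 other transporters, SLC6A8 (the creatine carrier; 1.28) and SLC38A2 (a neutral amino acid carrier; 0.57) rose and SLC3A1, SLC7A6, SLC7A7 and SLC7A8, which are chains of heteromeric amino acid carriers, fell (−2.06 to −0.74), while 2 other such chains, SLC3A2 (0.66) and SLC7A11 (−0.86), did not pass, with a median of −0.18. Of 9 on U133B, SLC38A1, SLC38A2, SLC6A6 (the taurine carrier) and SLC7A2 rose (2.57, 1.98, 1.00 and 1.79) and SLC25A18 fell (−1.96). SLC38A1, a glutamine carrier, was at means of 39528 in the layers and 6594 in whole muscle.

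Of 8 receptors and vesicular transporters on U133A, 5 fell, GRIN2B, GRM4, GRM6, GRM7 and SLC17A7 (−2.00 to −0.78), with a median of −0.87; on U133B 1 of 4, GRIK3, rose (1.21), with a median of 1.04. ARL6IP5, a protein known to bind SLC1A1, rose (0.70) and AJUBA, known to bind SLC1A2, fell (−1.26). Adjusted p-values in limma of the genes that passed lay between 5.41e-06 for SLC38A1 and 0.0498 for GRIK3. After quantile normalization GOT2 (0.00), SLC38A2 on U133A (0.05), SLC7A7 (−0.43), GRIN2B (−0.17), GRM6 (−0.47), ARL6IP5 (0.26) and SLC6A6 (−0.20, with the sign turned) no longer passed, while GOT1 (−0.97) and GRIA3 on U133B (1.20) did. The ACTB ratio given above differed between layers and whole muscle for all of these genes, and its part was not tested.

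**Figure D5:**
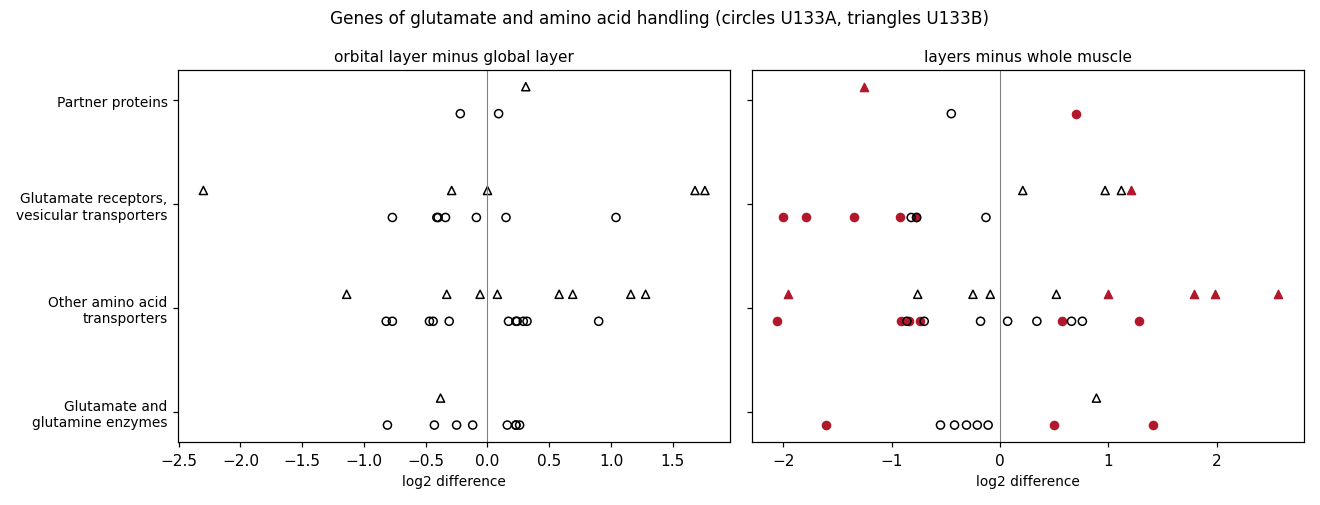
Log2 difference of each kept gene of 4 lists (circles for U133A, triangles for U133B) between orbital and global layer (left) and between layers and whole muscle (right); filled red symbols on the right passed an adjusted p of 0.05 in limma. On the right SLC38A1 on U133B lies highest at 2.57 (0.07 on U133A) and SLC3A1 on U133A lowest at −2.06.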

How the data were processed

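RNA of 16 samples was measured on human U133A and U133B arrays. The deposited tables give 1 linear intensity per probe set and array as the authors scaled it: after 2% of the values were trimmed at either end, the mean was 1500.2 to 1500.7 on every array. Which software summarised the probes is not stated by the labels or tables, and detection calls were not used here.

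Arrays of a table were brought to 1 shared 2% trimmed mean, values under the pooled 20th percentile of a table (146.5 on U133A, 218.5 on U133B) were raised to that floor, and log2 was taken. Probe sets were kept when the mean of their log2 values on the compared arrays was at least the pooled median (653.9 and 802.7); 68 control probe sets per table were left out. limma 3.58.1 in R 4.3.3 (intensity trend, 2 groups, two-sided, Benjamini-Hochberg adjustment over all kept probe sets of a table, threshold 0.05) was tested on simulated data. Figures were drawn with Python 3.11.15, pandas 2.3.3 and matplotlib 3.10.9.

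Members and lists were chosen with earlier results of these data known. All SLC1 probe sets are described; of each list, genes past the threshold and up to 4 with the highest mean could be named, each by its brightest kept probe set, and marker lists are given by counts and sums. A count of 2-fold differences in all pairings was planned and is not used here. No probe or transcript sequences were used. Alternatives are given in the closing section. The number of arrays, 2 per group and type, limits the precision.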

Additional observations from a re-analysis of the deposited data

How the results depend on the processing

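Of the alternatives for single SLC1 probe sets, 210 kept direction and side of the threshold, 12 lost a call, 10 gained one and 11 changed sign; unless stated, the cause was not tested. Between orbital and global layer, calls on U133A (39) were 21 after quantile normalization, 0 with no filter (1607 at an unadjusted p under 0.05 in limma), 12 with variances without a trend, 92 with the replicate block and 68 to 144 with 1 array left out. On U133B (2) they were 0 after quantile normalization, with the floor at the 5th percentile, with no filter and without a trend (763, 733, 1626 and 674 at an unadjusted p under 0.05 in limma), 19 with the floor at the 40th percentile, 23 with the filter at the 75th, 10 with all 4 groups in one fit, 26 with the replicate block and 0 to 28 with 1 array left out. The SLC1 calls there were 1 on U133A with all 4 groups or the replicate block and 0 to 1 with 1 array left out, and on U133B 0 after quantile normalization, with the floor at the 5th percentile, with no filter and without a trend (1 each at an unadjusted p under 0.05 in limma), and 0 to 1 with 1 array left out. Same-numbered layer arrays had correlations of deviations of 0.26 on U133A and 0.13 on U133B; with 2 pairs they share only a number, and the rectus fits have no block. Between medial and lateral rectus, calls on U133A (0) were 7 with the filter at the 75th percentile and 0 to 9 with 1 array left out. Between layers and whole muscle, calls were 2513 on U133A and 2799 on U133B with the filter at the 75th percentile, which tests fewer probe sets. SLC1 calls there on U133A (1) were 2 with the floor at the 40th percentile or a filter on arithmetic means, an alternative chosen after seeing the data, 0 with the filter at the 75th percentile or all 4 groups, and 0 to 1 with 1 array left out; on U133B (0) they were 1 with the floor at the 40th percentile or all 4 groups, and 0 to 1 with 1 array left out. Sign changes were as follows. Medial minus lateral, SLC1A2 208389_s_at was −0.03 after quantile normalization, and −0.17 to 0.19 with 1 array left out, where SLC1A5 was −0.09 to 0.53 and SLC1A4 212811_x_at −0.46 to 0.27. Layers minus whole muscle, SLC1A2 225491_at was −0.65 to 1.57 with 1 array left out, negative without either global layer array. Orbital minus global, SLC1A4 212811_x_at was 0.05 after quantile normalization and −0.32 to 0.29 with 1 array left out. Probe sets near the floor have only a bound.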
